A study of Sus scrofa with 8 samples.

Results

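Molecular chaperones, protein disulfide isomerases and the peptidyl-prolyl isomerases of the FKBP and cyclophilin families were examined in the endometrium of pregnant Meishan and Yorkshire gilts. Members were the probesets whose gene symbol starts with HSP, DNAJ, PDIA, FKBP or BAG, with CCT and a digit or with PPI and a letter from A to H, or is TCP1, CALR, CANX or P4HB. Each probeset reads one porcine transcript sequence through several short probes. The rule rests on names and uses no measured value. It found 147 of the 23935 tested probesets, which stand for 83 genes. The array annotation names 135 of these probesets (81 genes). The other 12 carry such a symbol only in the study's supplementary list of transcripts that differed between these same arrays, so their values are described apart and without a test. CCT3 and DNAJC12 are named by that list alone and enter the gene counts only where 83 genes, 55 cytosolic genes or the brightest genes are counted. The list was held in part, so the number of members it names may be larger. A further 22 of the 135 also appear in that list. P4HB, PPIB and CCT5 were not analysed here.

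The samples were endometrium of 4 Meishan and 4 Yorkshire gilts on day 12 of gestation, with 1 array per gilt. Gilts are young females before their first litter, Meishan is a Chinese breed known for large litters, and Yorkshire is a European white breed. Each gilt had been mated to boars of her own breed, so the breed of the mother and that of the conceptuses cannot be told apart. Only uteri in which all conceptuses were filamentous had been taken. No engineered allele and no agent is named for either breed, and the age of the gilts is not given in the sources used here. In a tissue homogenate, fewer cells of a type and less RNA per cell cannot be told apart.

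Chaperones bind unfolded protein and help it to fold, and most are made all the time, while some are induced by heat or other protein damage through the factor HSF1. In the cytosol HSP70 works with J-domain proteins, BAG nucleotide exchange factors and HSP90, and the ring-shaped chaperonin CCT folds actin and tubulin. In the endoplasmic reticulum (ER), where secreted protein is folded, HSPA5, HSP90B1, the lectins calnexin and calreticulin and the disulfide isomerases do this work and are induced together in the unfolded protein response. Endometrial glands secrete large amounts of protein into the uterine lumen in early pregnancy, so their cells depend on the ER set.

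Signals are linear brightness values in scanner units after each array was centred on its median. Breed means are geometric means, and log2 differences are Meishan minus Yorkshire with a standard error (SE) from a limma fit over all probesets. A probeset was called at a Benjamini-Hochberg adjusted p under 0.1. The median signal before centring was 169 to 196 on Meishan arrays and 172 to 188 on Yorkshire arrays. Epithelial markers (7 of 7 measured) summed to 22683 to 36891 in Meishan and 23946 to 36927 in Yorkshire, with PAEP alone dim at means of 29.9 and 17.8. Stromal markers (5 of 5) summed to 56818 to 62547 in Meishan and 45670 to 54683 in Yorkshire. Endothelial markers (4 of 4) summed to 4734 to 4866 and 5041 to 6721, so neither sum overlapped between breeds. By gene, 2 of 5 stromal markers (VIM and DCN) and 1 of 4 endothelial markers (CDH5) did not overlap, beside 10.1% of all probesets. The others overlapped, and COL3A1 (-0.79) and PECAM1 (0.11) leaned against their sums. The ranges were 2368 to 3855 and 3345 to 4840 for muscle (3 of 4), 284 to 662 and 429 to 521 for leukocytes (4 of 6), 2824 to 6940 and 1471 to 5107 for plasma cells (1 of 5), and 914 to 1250 and 829 to 1308 for red cells (2 of 4). The means of 18 spiked-in hybridization controls, 3237 to 6314 in Meishan and 1744 to 2383 in Yorkshire, did not overlap either. The part of these differences in the chaperone values was not tested.

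One array stood apart in this gene group. Among the 78 array-named genes whose mean signal reached 64, the median gene in Meishan 1 lay 0.46 log2 units above its own mean over the 8 gilts. The medians of the other Meishan gilts were -0.16, -0.13 and 0.20, and those of Yorkshire 1 to 4 were -0.12, -0.28, -0.08 and 0.22. In Meishan 1 the median was 0.08 over all probesets whose mean reached 64 and 0.17 over the brightest 10% of probesets. Meishan 1 was the highest of the 8 gilts for 43 of the 78 genes (55.1%), beside 21.4% of all probesets with such a mean and 33.7% of the brightest 10% of probesets. The ER genes lay highest there, with a median of 0.72 in Meishan 1, and 14 of the 19 peaked in that gilt. Meishan 4 and Yorkshire 4 followed among all 78 genes, and the medians of Meishan 2 to 4 lay within the range of the Yorkshire gilts.

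**Figure D1:**
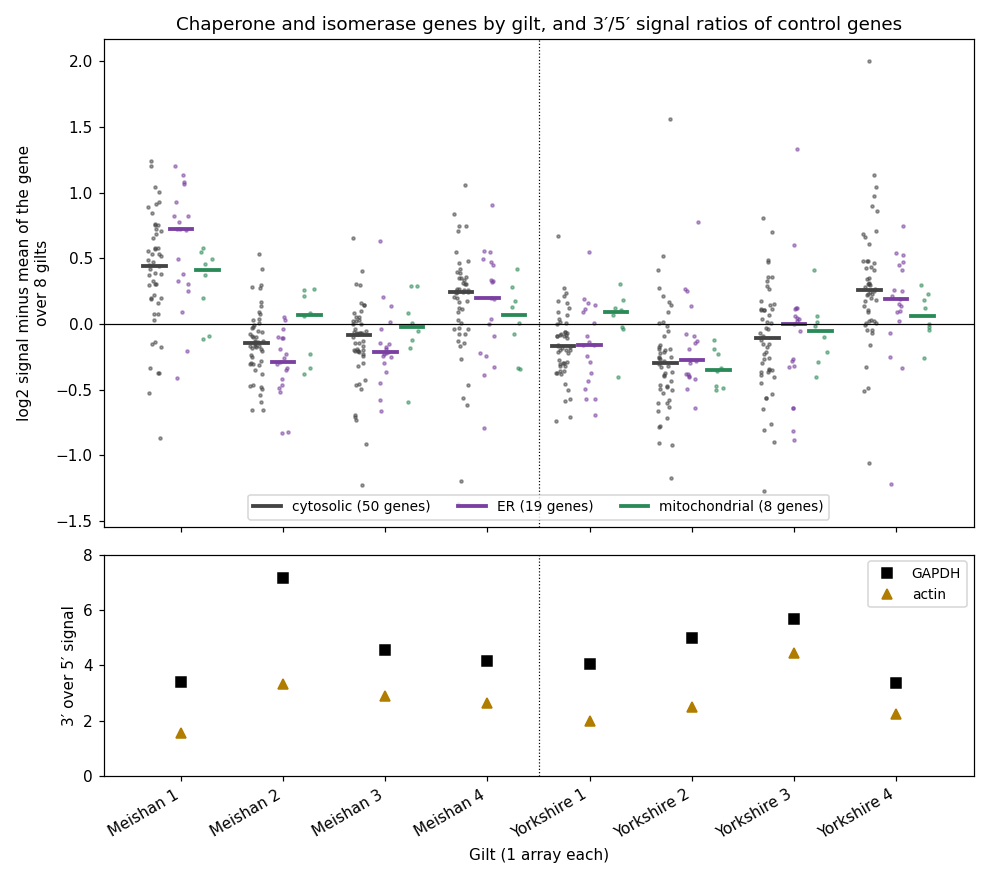
Top, log2 signal of each array-named gene (with a mean signal of 64 or more) minus its mean over the 8 gilts, by gilt, for 50 cytosolic, 19 ER and 8 mitochondrial genes, with bars at the medians. The medians are highest in Meishan 1 (0.44, 0.72 and 0.41). Bottom, ratio of 3′ to 5′ signal of the GAPDH and actin control probesets on the same arrays, with the lowest GAPDH ratios in Yorkshire 4 (3.38) and Meishan 1 (3.41).

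Signs of RNA quality varied among the same arrays. The ratio of 3′ to 5′ signal of GAPDH, which is larger when RNA is shorter or copied less fully, was 3.41, 7.14, 4.56 and 4.15 in Meishan 1 to 4 and 4.04, 4.98, 5.68 and 3.38 in Yorkshire 1 to 4. For actin it was 1.56, 3.32, 2.91 and 2.63 in Meishan and 2.01, 2.48, 4.45 and 2.26 in Yorkshire. Meishan 1 thus had the lowest actin ratio and nearly the lowest GAPDH ratio, and Yorkshire 4 the lowest GAPDH ratio. The part of RNA quality in the chaperone levels was not tested.

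No member probeset was called between the breeds. In the limma fit 219 of the 23935 probesets (0.915%) were called, 0.409% with higher Meishan means and 0.506% with higher Yorkshire means, and 0 of them were among the 135 array-named members, whose lowest adjusted p was 0.103. At an unadjusted p under 0.05 there were 17 members (12.6%), beside 14.7% of all probesets. Of these, 11 (8.15%) had higher Meishan means and 6 (4.44%) higher Yorkshire means, beside 7.85% and 6.88% of all probesets, so the members passed about as often as other probesets. The 4 Meishan gilts did not overlap with the 4 Yorkshire gilts for 12 members (8.89%), beside 10.1% of all probesets. Meishan was the higher breed in 9 of these (6.67%) and Yorkshire in 3, beside 5.05% and 5.01% of all probesets. Some genes count more than once here, such as PDIA3 with 3 probesets. At the brightest probeset of the 81 array-named genes, Meishan was higher without overlap in 3 and Yorkshire in 3 (7.41% together). An unadjusted p under 0.05 was then reached by 4 genes with higher Meishan means (4.94%) and 5 with higher Yorkshire means (6.17%).

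The members leaned toward Meishan by small amounts. With each gene at its brightest probeset, 63 of 83 genes (75.9%) had the higher mean in Meishan, with a median log2 difference of 0.18, beside 51.9% and 0.02 over all probesets. With the array-named genes alone it was 62 of 81 (0.18), and 41 of 53 in the cytosol (0.18). The 33 genes in the brightest 10% of probesets, DNAJC12 among them, included 27 toward Meishan with a median of 0.25, beside 45.9% and -0.03 for those 10% as a whole. By place in the cell, the lean held for 42 of 55 cytosolic genes (median 0.18), 13 of 19 ER genes (0.11) and 7 of 8 mitochondrial genes (0.25). The cytosolic group also holds genes of nuclear proteins, such as PPIG and PPIE. HSPB11 (0.41), whose probeset the supplementary list names PMM1, was placed in none of these groups but counts among the 83 and the 81 genes. Without Meishan 1 the lean held for 47 of 83 genes (median 0.07), beside 50.1% and 0.00 over all probesets. By place it was 34 cytosolic (0.10), 7 ER (-0.06) and 5 mitochondrial genes (0.18). The brightest 10% of probesets as a whole then stood at 37.2% and -0.09. The array-named genes alone gave 46 of 81 (0.07), 33 of them cytosolic (0.10). The ER lean therefore depended on that gilt.

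**Figure D2:**
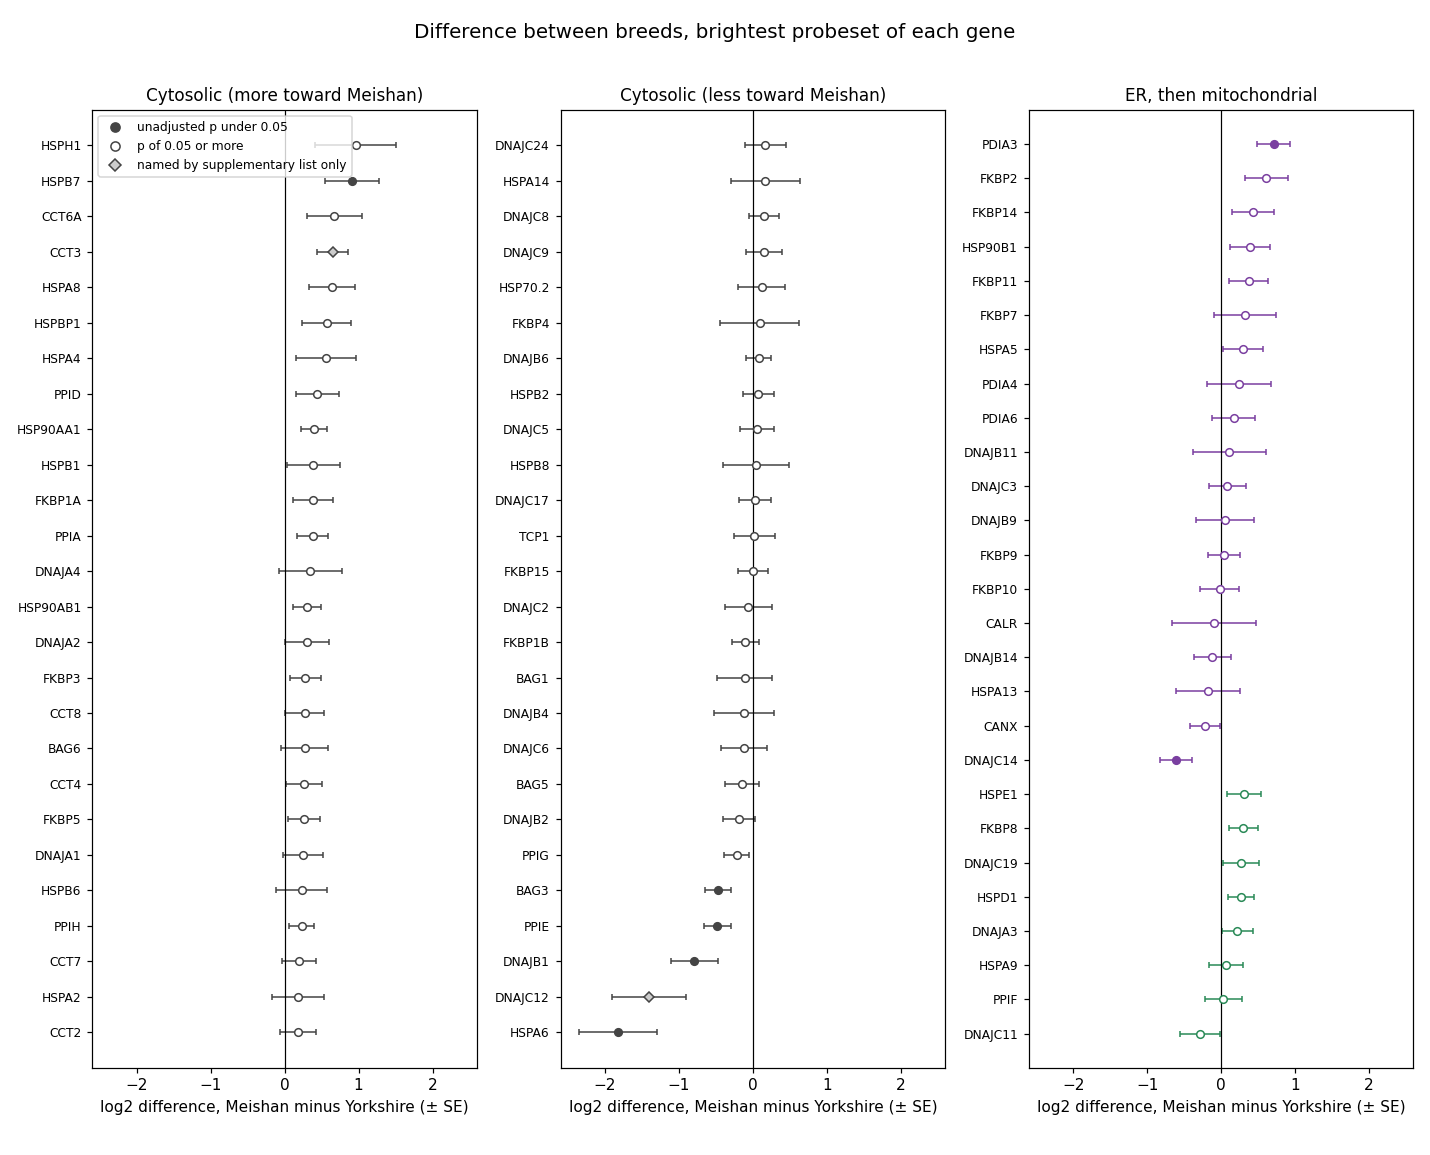
Log2 difference, Meishan minus Yorkshire, with its standard error, for the brightest probeset of 52 cytosolic genes whose mean signal reached 64 (left and middle), 19 ER genes and 8 mitochondrial genes (right). Filled points have an unadjusted p under 0.05 and grey diamonds are genes named by the supplementary list only, shown without a test. Most points lie right of 0 within about 1 log2 unit, and HSPA6 lies farthest left at -1.82.

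The HSP70 and HSP110 family holds the ATP-driven chaperones that bind short exposed stretches of protein. Of its 11 genes, 9 had higher Meishan means (median 0.18), and 6 did without Meishan 1 (0.02). HSPA6, in human a strictly stress-induced HSP70, had the lowest p of the array-named members on the Yorkshire side. Its signals were 170.3, 277, 133 and 120.1 in Meishan gilts and 255, 919, 398 and 1247 in Yorkshire gilts. Yorkshire 2 and 4 were high, and Yorkshire 1 lay below Meishan 2, so the breeds overlapped. The log2 difference was -1.82 ± 0.53 (SE), a 3.53-fold lower Meishan mean, at an adjusted p of 0.187.

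HSP70.2, an inducible HSP70 of the pig with the synonyms HSPA1A and HSPA1B, had nearly equal breed means, and its difference from HSPA6 was not tested. It had signals of 15612, 14516, 6569 and 11132 in Meishan and 9691, 9745, 8338 and 15027 in Yorkshire (0.12 ± 0.32). The spread among gilts of each breed exceeded the difference. Its 3 probesets ran from -0.13 to 0.12, and as inducible HSP70 genes are near-identical copies, the probes may read more than 1 of them. HSPH1, the HSP110 that recharges HSP70 with ATP, had 4831, 1469, 2161 and 4246 in Meishan and 1361, 1076, 846 and 3698 in Yorkshire (0.96 ± 0.55, adjusted p 0.465). Meishan 1, Meishan 4 and Yorkshire 4 were high, so the within-breed spread was as wide as the difference between breeds.

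HSPA8, the constitutive HSP70 that also strips clathrin from vesicles, was read by 4 probesets that ranked the gilts in different orders. The brightest gave 21065, 12457, 13905 and 11039 in Meishan and 9864, 7308, 6695 and 13997 in Yorkshire (0.64 ± 0.31, adjusted p 0.38). The second gave 4916, 12883, 14569 and 7927 in Meishan and 8306, 8957, 8549 and 4752 in Yorkshire (0.32 ± 0.39). Meishan 1 was the highest gilt on the first and nearly the lowest on the second. The remaining probesets, at -0.25 and -0.10, were likewise low in Meishan 1 and Yorkshire 4.

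DNAJB1 and BAG3, a pair of heat-inducible cochaperones, had higher Yorkshire means, as HSPA6 did. DNAJB1, the J-domain partner of inducible HSP70, had 1534, 1522, 1053 and 1155 in Meishan and 1333, 2444, 2056 and 3743 in Yorkshire (-0.79 ± 0.32, adjusted p 0.318). Only Yorkshire 1 was within the Meishan range. BAG3, which links HSP70 to autophagy, had 1451, 1353, 1317 and 1461 in Meishan and 1558, 1983, 2279 and 1979 in Yorkshire (-0.47 ± 0.18, adjusted p 0.277). Every Yorkshire gilt was above every Meishan gilt for this probeset, while the second BAG3 probeset overlapped (-0.28 ± 0.26).

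Across 16 classic heat-inducible members the direction was mixed. This list also holds HSPA8 and HSP90AB1, the constitutive forms of HSP70 and HSP90, at 0.64 ± 0.31 and 0.30 ± 0.19. A higher Meishan mean was found for 12 (median 0.26), or 9 without Meishan 1 (0.15), and the 3 with an unadjusted p under 0.05 (18.8%, beside 14.7% of all probesets) were HSPA6, DNAJB1 and BAG3, all with lower Meishan means. By gilt, their medians were 0.55 in Meishan 1, 0.26 in Meishan 4 and 0.39 in Yorkshire 4, and from -0.12 to -0.31 in the other 5 gilts. HSPA6 itself was lowest in Meishan 4, where the list median was above 0. A high list median thus did not always go with high HSPA6.

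**Figure D3:**
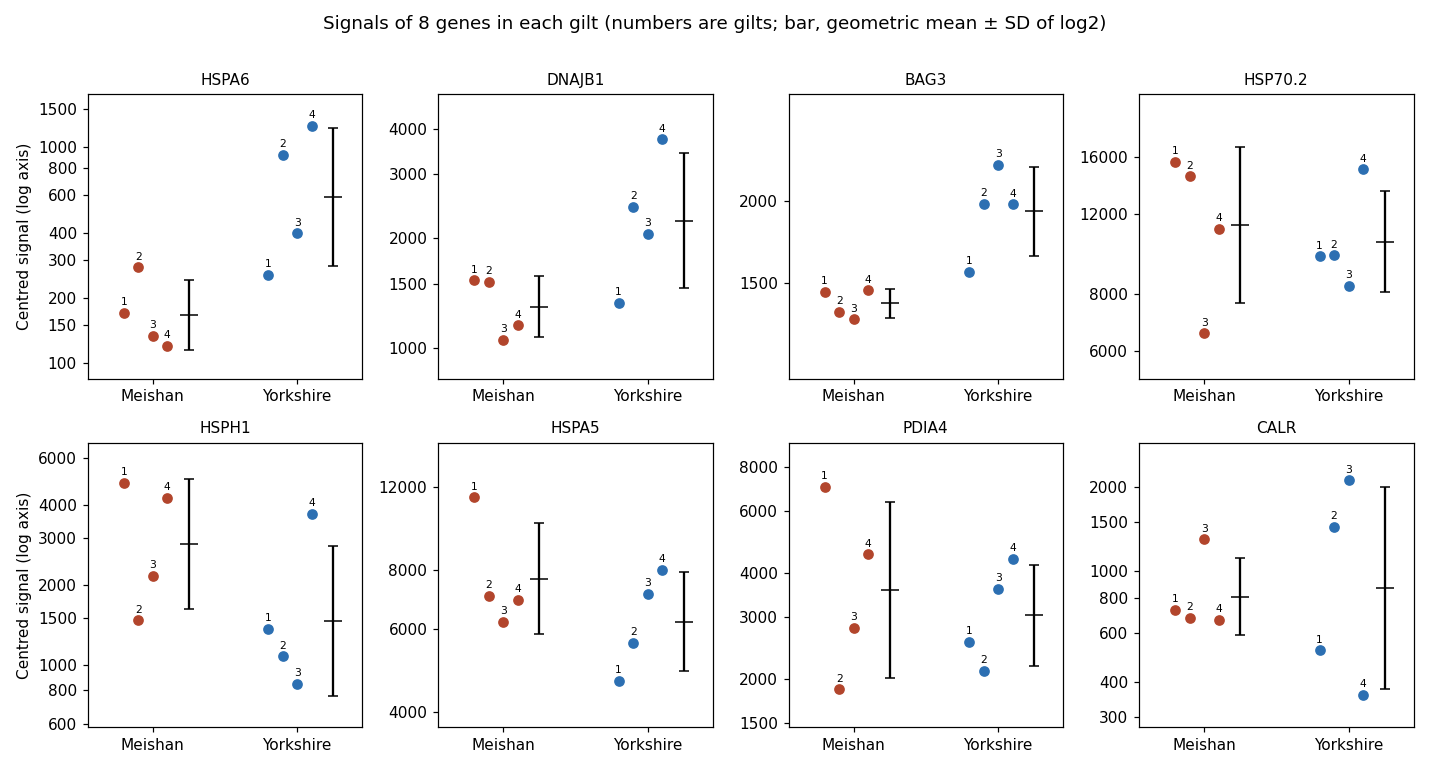
Centred signals (log axis) of 8 genes in each gilt, Meishan left and Yorkshire right, with numbers for the gilts and a bar at the geometric mean with the SD of log2 values. HSPA6, DNAJB1 and BAG3 have higher Yorkshire means, with only BAG3 free of overlap, while HSP70.2, HSPH1, HSPA5, PDIA4 and CALR spread as widely within breeds as between them.

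HSP90 completes the folding of kinases and steroid receptors, such as those for progesterone and oestrogen in uterine tissue. All 3 HSP90 genes had higher Meishan means at their brightest probeset, also without Meishan 1 (median 0.39, then 0.22). HSP90AA1, the inducible form, had 15488, 13368, 13033 and 15792 in Meishan and 10377, 9686, 10434 and 13513 in Yorkshire (0.40 ± 0.18, adjusted p 0.36). Only Yorkshire 4 reached the Meishan range. HSP90AB1, the constitutive form, had 9144, 6578, 6728 and 9230.1 in Meishan and 6631, 5906, 5882 and 7102 in Yorkshire (0.30 ± 0.19), which overlapped. The other 4 HSP90AA1 probesets ran from -0.39 to 0.09, so 2 of 5 leaned toward Meishan. FKBP4 and PPID, which dock on HSP90 and belong to steroid receptor complexes, differed by 0.09 ± 0.53 and 0.44 ± 0.29. FKBP4 had 1423, 392, 378 and 788 in Meishan and 553, 377, 481 and 1274 in Yorkshire, a 3.78-fold range among gilts that was not tied to breed.

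Small heat shock proteins hold unfolded protein without using ATP, and several are abundant in muscle. All 6 genes had higher Meishan means, 5 without Meishan 1. HSPB1, the widely expressed member, had 8587, 4249, 3778 and 8260.2 in Meishan and 3579.5, 3759, 4127 and 6859.8 in Yorkshire (0.39 ± 0.36). HSPB7, known from heart and skeletal muscle, had 116, 136, 148 and 116 in Meishan and 149, 54.8, 59.8 and 45.0 in Yorkshire (0.91 ± 0.37, adjusted p 0.307), where Yorkshire 1 was the highest gilt of all. HSPB3, likewise known from muscle, was dim in all gilts, with 50.7, 41.0, 60.0 and 35.0 in Meishan and 15.1, 26.1, 4.55 and 2.46 in Yorkshire (adjusted p 0.182). HSPA12A, a divergent HSP70 relative, was dim as well, with means of 56.4 and 21.5. Such values below 64 lie where the array resolves little, and no fold is given for them. The dimmest 10% of all probesets had a median of 0.46 toward Meishan.

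The cytosolic chaperonin leaned toward Meishan. All 6 array-named genes and all 9 of their probesets had higher Meishan means (median 0.23 for genes), 5 of 6 genes without Meishan 1 (0.12). CCT6A, one ring subunit, was read by 3 probesets. The brightest gave 5670, 2713, 2560.4 and 4129.9 in Meishan and 2265, 1861, 1517 and 3943 in Yorkshire (0.67 ± 0.37). The second gave 5121, 3078, 2606 and 4629 in Meishan and 1684, 1463, 1643 and 2805 in Yorkshire (1.02 ± 0.30, adjusted p 0.196). Only Yorkshire 4 came above the lowest Meishan gilt there, and on the dimmest probeset the breeds did not overlap (1.13 ± 0.41, adjusted p 0.261).

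Other ring subunits lay closer to 0. CCT2, CCT4, CCT7 and CCT8 lay at 0.18 ± 0.24, 0.26 ± 0.24, 0.20 ± 0.23 and 0.27 ± 0.26. TCP1, the founding subunit, had 3210, 1624, 2264 and 2715 in Meishan and 2268, 1713, 2372 and 3302 in Yorkshire (0.02 ± 0.28). CCT8 had 4007, 2064, 2597 and 3548 in Meishan and 2504, 2145, 2114 and 3184 in Yorkshire. In these 5 subunits the gilts of the breeds overlapped, and Meishan 1, Meishan 4 and Yorkshire 4 had the 3 highest signals of CCT8.

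J-domain proteins hand substrates to HSP70 and trigger its ATPase. Of 22 array-named genes 14 had higher Meishan means (median 0.07), or 9 without Meishan 1 (-0.04). DNAJC14, an ER membrane member known for the export of a dopamine receptor, had 488, 531, 585 and 495 in Meishan and 948, 713, 981 and 616 in Yorkshire (-0.61 ± 0.21, adjusted p 0.232). All Yorkshire gilts were above all Meishan gilts, while a second probeset overlapped (0.10 ± 0.26). The dimmer DNAJA1 probeset had 752, 1438, 1241 and 966 in Meishan and 603, 540.1, 491 and 621 in Yorkshire (0.93 ± 0.24, adjusted p 0.154). The supplementary list names this probeset ATP6V0E1, a proton pump subunit, and its gilts follow another order than the brightest DNAJA1 probeset (0.25 ± 0.27), which peaked in Meishan 1. DNAJB6, known for holding back polyglutamine aggregates, was even between breeds at 0.08 ± 0.17, with 4 probesets from -0.49 to 0.17.

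BAG proteins release ADP from HSP70. Apart from BAG3, they differed by less than their spread, and only 1 of 4 genes had the higher mean in Meishan. BAG1, which ties HSP70 to the proteasome, had 5054, 1974, 1739 and 1781 in Meishan and 1989.9, 2425, 2638 and 3292 in Yorkshire (-0.11 ± 0.37). Meishan 1 alone was above all Yorkshire gilts, and the other Meishan gilts were below all of them. Without Meishan 1 the difference was -0.48.

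In the ER, HSPA5, the HSP70 that holds stress sensors inactive, had 11408, 7049, 6220.3 and 6921 in Meishan and 4659, 5618, 7118 and 8003 in Yorkshire (0.30 ± 0.27, or 0.11 without Meishan 1). HSP90B1, the ER form of HSP90 needed for integrins and Toll-like receptors, had 12484, 6553, 5928 and 8816 in Meishan and 5787, 5854, 5659.7 and 7589 in Yorkshire (0.39 ± 0.27, or 0.18). Meishan 1 was the highest gilt for both. DNAJB9 and DNAJB11, J-domain partners of HSPA5, differed by 0.05 ± 0.39 and 0.11 ± 0.49. DNAJB11 had 1474, 378, 449 and 948 in Meishan and 498, 476, 646 and 1127 in Yorkshire, a 3.90-fold range among gilts. HSPA13, an HSP70 relative of the microsomes, also peaked in Meishan 1, at 3689 against 925 to 1265 in the other Meishan gilts and 1331 to 2322 in Yorkshire (-0.18 ± 0.43).

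Disulfide isomerases form and rearrange the bonds between cysteines of secreted protein. All 3 genes and all 7 probesets had higher Meishan means, and for 3 of the 7, beside 5.05% of all probesets with Meishan higher, the breeds did not overlap. Without Meishan 1 the higher mean was in Meishan for 1 gene and 5 probesets. PDIA3, which acts on glycoproteins together with calnexin and calreticulin and loads MHC class I, accounted for all 3 of those probesets, which share 1 gene. The brightest gave 1382, 1206, 1336 and 2170.3 in Meishan and 823, 881, 955 and 974 in Yorkshire (0.71 ± 0.22, a 1.64-fold higher Meishan mean, adjusted p 0.207). The second gave 469.6, 300.2, 278 and 358 in Meishan and 153, 186, 167 and 167 in Yorkshire (1.03 ± 0.21, 2.05-fold, adjusted p 0.103). The third gave 249, 205, 304 and 324 in Meishan and 189, 192, 63.0 and 197 in Yorkshire (0.87 ± 0.40, adjusted p 0.362). Every Meishan gilt was above every Yorkshire gilt on each probeset, and Meishan 1 was the highest on the second only. Without Meishan 1 the differences were 0.74, 0.88 and 0.90.

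PDIA4 and PDIA6 are other isomerases of the unfolded protein response, and their breeds overlapped on each probeset. At its brightest probeset PDIA4 had 7006, 1873, 2794 and 4516 in Meishan and 2549.7, 2116, 3602 and 4386 in Yorkshire (0.24 ± 0.43, or -0.08 without Meishan 1). Its other probesets lay at 0.58 ± 0.53 and 0.56 ± 0.59, or 0.23 and 0.39 without that gilt. PDIA6 had 12539, 5442, 6557 and 9571 in Meishan and 6827, 5757, 7756 and 8717 in Yorkshire (0.17 ± 0.29, or -0.04). At the brightest probeset of both, Meishan 2 was the lowest gilt and Meishan 1 the highest. Whether either gene differed from PDIA3 was not tested.

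Calnexin and calreticulin are the lectins that hold new glycoproteins in the ER until they fold. CANX was read by 6 probesets from -0.33 to 1.14. On the brightest it had 8015, 5543, 5261 and 5558 in Meishan and 7389, 5909, 7026 and 7756 in Yorkshire (-0.22 ± 0.20), while a dimmer probeset had 1381, 1329.7, 868 and 970 in Meishan and 428, 734, 512 and 408 in Yorkshire (1.14 ± 0.26, adjusted p 0.129). On this dimmer probeset the breeds did not overlap, nor did they on a neighbouring probeset (0.58 ± 0.21, adjusted p 0.252). CALR had 728, 681, 1299.7 and 669.7 in Meishan and 521, 1441, 2111 and 362 in Yorkshire (-0.10 ± 0.57). It varied 5.83-fold among gilts and was lowest in Yorkshire 4 and highest in Yorkshire 3.

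**Figure D4:**
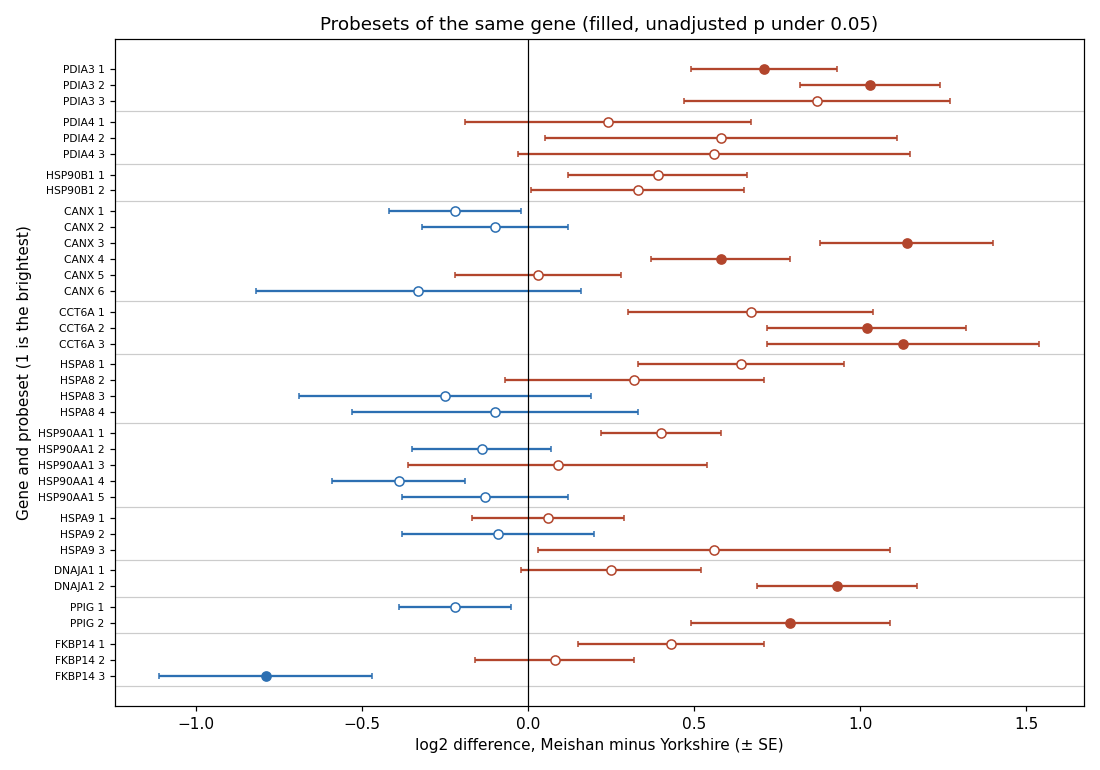
Log2 difference, Meishan minus Yorkshire, with its standard error, for the array-named probesets of 11 genes that have several, from the brightest (1) down. Filled points have an unadjusted p under 0.05. The 3 PDIA3 and 3 CCT6A probesets all lie right of 0, while those of CANX, HSPA8 and HSP90AA1 fall on both sides.

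Different probesets of a gene often disagreed in sign. Of 33 genes with several array-named probesets, 28 had at least 2 with a mean of 64 or more, and 14 of these had signs on both sides of 0. In 12 of the 33 genes all probesets leaned toward Meishan and in 4 all leaned toward Yorkshire. PPIG, a nuclear cyclophilin of splicing bodies, lay at -0.22 ± 0.17 on its brightest probeset and at 0.79 ± 0.30 on a dimmer one (adjusted p 0.277). FKBP14, an ER isomerase for collagen, lay at 0.43 ± 0.28 and at -0.79 ± 0.32 (adjusted p 0.302). HSPB6, HSPA9, HSPA13, FKBP1B and DNAJB9 also had both signs, none with an unadjusted p under 0.05.

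Peptidyl-prolyl isomerases turn proline bonds, and FKBPs and cyclophilins are the targets of the drugs tacrolimus and cyclosporin. Of 14 FKBP genes 12 had higher Meishan means (median 0.29), or 9 without Meishan 1 (0.16). FKBP2 and FKBP11, both of the ER, lay at 0.61 ± 0.29 (adjusted p 0.381) and 0.37 ± 0.27. FKBP2 had 2458, 1299, 1403 and 1932 in Meishan and 1245, 1218, 753 and 1416 in Yorkshire, with overlap through Yorkshire 4. FKBP1B, which steadies calcium release channels, was at -0.10 ± 0.18.

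Cyclophilins were split, with 4 of 6 genes toward Meishan (median 0.13), or 3 without Meishan 1 (0.01). PPIA, the abundant cytosolic form, had 16692, 11353, 11782 and 13316 in Meishan and 10061, 8252, 10217 and 12243 in Yorkshire (0.38 ± 0.21, adjusted p 0.436). PPIE, a spliceosome cyclophilin, had 194, 174, 155 and 202 in Meishan and 216, 247, 268 and 284 in Yorkshire (-0.48 ± 0.18, adjusted p 0.265). The Yorkshire gilts were all above the Meishan gilts for PPIE, and PPIA overlapped.

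Mitochondrial chaperones such as HSPD1 and HSPE1 fold protein imported into the matrix, while not every member of the mitochondrial group does so. None of the 11 array-named probesets of that group had an unadjusted p under 0.05, beside 14.7% of all probesets. HSPD1 and HSPE1, which are neighbouring genes and form one folding chamber, had log2 differences of 0.27 ± 0.18 and 0.31 ± 0.23. HSPD1 had 5867, 5334, 5146 and 6221 in Meishan and 5373, 4489.9, 3882 and 5036 in Yorkshire. HSPE1 had 13041, 9253, 8414 and 8758 in Meishan and 9916, 6291, 7124 and 8462 in Yorkshire. Yorkshire 1 was within the Meishan range for both, so the pair leaned toward Meishan with overlap. HSPA9, the import motor, and PPIF, the cyclophilin of the permeability pore, were at 0.06 ± 0.23 and 0.03 ± 0.25. FKBP8, DNAJC19, DNAJA3 and DNAJC11 lay at 0.30 ± 0.20, 0.27 ± 0.24, 0.22 ± 0.21 and -0.28 ± 0.27.

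The 12 probesets named only by the supplementary list had been chosen for differing between these arrays, so their differences describe that choice. The probeset that the list names CCT3, and the array annotation BMPR1A, was 1.57-fold higher in Meishan, with 1271, 914, 909 and 1237 in Meishan and 697, 619.9, 579.6 and 849.7 in Yorkshire. DNAJC12, a partner of the aromatic amino acid hydroxylases, had 489, 1156, 2073 and 647 in Meishan and 2905, 3036, 3216 and 1296 in Yorkshire, a log2 difference of -1.40. Its second probeset was at -1.04, with Yorkshire 4 again the lowest of its breed. The list gives the name DNAJC19 to 2 probesets that went opposite ways, at -0.66 and 1.30, and the array annotation names the first of them SLK. The probesets listed as DNAJC9, FKBP11, FKBP3, FKBP6 and HSPE1 lay between 0.22 and 1.15. The one listed as PPIF had means of 51.6 in Meishan and 208 in Yorkshire, and the one listed as HSP90B1 was dim at 9.05 and 38.0. Array and list names disagreed for 4 of the 24 members that carry both.

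Other genes of the same pathways were read from lists. Of 26 listed cochaperones and related genes, HSF1, HSF2, CRYAB and TRAP1 among them, 20 were measured. Higher Meishan means were found for 13, beside 51.9% of all probesets, and 0 were called, beside 0.915%. Among 25 further ER folding and unfolded protein response genes (44 listed), 16 had higher Meishan means and 0 were called. Of 11 genes for mitochondrial import and proteolysis (19 listed) 5 had higher Meishan means. Of 5 other prolyl isomerases (11 listed) 3 did, and 0 were called in either list. Without Meishan 1 these counts were 11 of 20, 11 of 25, 2 of 11 and 1 of 5, and the median of the ER list was -0.05, against 0.12 with all gilts. Counted at an unadjusted p under 0.05, these lists held 2, 1, 0 and 0 genes, beside 14.7% of all probesets. TRAP1, the mitochondrial HSP90, lay at 0.47 ± 0.20 and DERL1, of the ER retrotranslocation channel, at -0.61 ± 0.21 (adjusted p 0.247). TOMM34, an import cochaperone, was dim in Meishan, with a mean of 44.3 there and 157 in Yorkshire (adjusted p 0.193).

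The ER list peaked in the same gilt as the ER members. Its median was 0.57 in Meishan 1 and between -0.25 and 0.26 in the other 7 gilts, and 17 of its 25 genes were highest in Meishan 1. HYOU1, the large HSP70 relative of the ER, had 3984, 1194, 799.5 and 1756 in Meishan and 1214, 1469, 1699.9 and 2459 in Yorkshire (-0.04 ± 0.49). MANF, a secreted calcium-sensitive ER protein, had 6477, 1978, 1759 and 2657 in Meishan and 2153, 2075, 2748 and 3571 in Yorkshire (0.11 ± 0.42). ATF4, a transcription factor of the integrated stress response, had 7291, 3207, 3222 and 3794 in Meishan and 3677, 3491, 3884 and 5835 in Yorkshire (-0.01 ± 0.32). In each case Meishan 1 was the highest and Yorkshire 4 the second highest gilt, and the breed means were close to equal. DDIT3, a target of ATF4 linked to cell death, did not peak there, with 275, 237, 255 and 197 in Meishan and 304, 263, 393 and 377 in Yorkshire.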

How the data were processed

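Endometrial RNA of 4 Meishan and 4 Yorkshire gilts was measured on one-colour Affymetrix Porcine Genome arrays. The authors deposited linear intensities from GCOS 1.2, whose mean after trimming 2% at each end was 500.1 on every array. The arrays hold 24123 probesets, and 188 control probesets were left out. Signals were put on the log2 scale, centred on the array median and compared by breed in limma 3.58.1 (R 4.3.3) using moderated variances (2.1 prior degrees of freedom), with p-values adjusted by Benjamini-Hochberg over 23935 probesets. The number of arrays limits precision, and slides and scan dates are not given in the sources used here. On simulated data with 200 changed probesets of 23935, the fit recovered 0% at a log2 change of 1, 60% at 2 and 83.5% at 4. False calls numbered 16 at 2 and 17 at 4. The simulation changed fewer probesets than the real data, where the unchanged share was estimated at 0.73. Its recovery rates therefore do not carry over to the real fit.

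Symbols came from the platform annotation (10069 probesets with 1 symbol, 198 with several, 13668 with none). Of the 135 members it names, 132 matched through Entrez identifiers and 0 symbols changed. The other names came from the study's supplementary list, held here in part, of which 2495 tested probesets were read. Authors' fold changes and p-values were not used. Each gene was taken at its brightest probeset.

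Named genes were members with an unadjusted p under 0.05, the 6 of lowest p in each compartment, 33 canonical genes (28 with a probeset), the 6 with the largest SD within breeds and genes with opposite probesets, together 52 genes. Members, lists and this rule were chosen with earlier results of these data known, and genes outside the rule (those of the other pathway lists) were chosen after their values were seen. Gilts with the same replicate number were not treated as pairs, as the sample labels name no pairing (their deviations correlated at -0.0554, 0.0892, 0.000228 and 0.04). Alternatives were quantile, cyclic loess or no further scaling, a filter at 64, a floor of 32, an intensity trend, no moderation, Storey q-values, array weights, the replicate block, a threshold of 0.05, leaving out each gilt, averaging the probesets of a gene and platform names alone.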

Additional observations from a re-analysis of the deposited data

Results flagged for a closer look

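In 118 groups of 4 gilts (59 named probesets in each breed), 9 had 1 gilt whose gap from the others on the log2 scale passed Dixon's critical value. That value is passed by about 1 in 20 independent, unselected groups. The rate does not carry over, because the groups share 8 gilts and some probesets, CALR and DNAJC12 included, were named for a large SD within breeds. Meishan 1 was the high gilt in 3 of them, with BAG1 at 5054 against 1739 to 1974 in the other Meishan gilts, CANX at 8015 against 5261 to 5558 and DNAJB9 at 3217 against 1191 to 1299. Meishan 3 was high for CALR, at 1299.7 against 669.7 to 728, and low for the dim HSPA12A, at 29.6 against 67.5 to 71.9. Yorkshire 4 was high for CCT2 at 4459 against 3136 to 3162 in the other Yorkshire gilts, for HSP90B1 at 7589 against 5659.7 to 5854 and for PPID at 1304 against 725 to 799.6. It was low for DNAJC12, at 1296 against 2905 to 3216.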

How the results depend on the processing

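The count of called members was 0 in the reported fit, in the unmoderated model, at a threshold of 0.05, with the replicate block (15 members at an unadjusted p under 0.05, and 0 calls among all probesets against 219) and without each gilt in turn (0 each time). It was 1 under quantile normalization, cyclic loess and no further scaling (PDIA3 at 0.0851, 0.0868 and 0.0753), 2 with Storey q-values (PDIA3 0.0752, CANX 0.0939) and with array weights (PDIA3 0.0772, DNAJA1 0.0991), 3 with the filter at 64 (PDIA3 0.046, CANX 0.0622, DNAJA1 0.0829) and with the floor of 32 (0.0448, 0.0678, 0.0847), and 5 with the intensity trend (PDIA3 0.0561, CANX 0.0471, DNAJA1 0.0665, CCT6A 0.0987, HSPA6 0.0992). All are probesets other than the brightest of their gene, except that of HSPA6. Over all probesets these settings called 236, 215, 209, 520, 496, 747, 765 and 629. The count at an unadjusted p under 0.05 was 9 to 18 without 1 gilt, against 17, and lowest without Yorkshire 3. It was 20 with the floor of 32, 21 with no further scaling and 22 with the intensity trend. Over all probesets these settings gave 3850, 3542 and 3734, against 3524 in the reported fit. With all gilts the lowest count of members was 15, under cyclic loess and with the replicate block. Of 1060 values for 59 named probesets under the alternatives, 1013 kept sign and side of the threshold, 18 became calls and 29, in 12 genes, changed sign. The cause of these changes was not tested. The sign changed under array weights for CALR (0.03) and DNAJB9 (-0.09) and under cyclic loess for CALR (0.01). Without 1 gilt, the values ranged from -0.48 to 0.04 for BAG1, -0.52 to 0.32 for CALR, -0.25 to 0.41 for DNAJB11, -0.29 to 0.22 for DNAJB9, -0.29 to 0.46 for FKBP4, -0.03 to 0.38 for HSP70.2, -0.62 to 0.05 for HSPA13, -0.08 to 0.18 for HSPA9, -0.08 to 0.55 for PDIA4, -0.04 to 0.36 for PDIA6, -0.14 to 0.15 for PPIF and -0.13 to 0.20 for TCP1. Genes toward Meishan numbered 47 (without Meishan 1) to 65 of 83 without 1 gilt, 63 to 65 under the scalings tried, 61 with the probesets of a gene averaged and 62 of 81 with platform names alone.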
